A study of Homo sapiens with 3 samples.

Results

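This account covers 9 genes of the p53 network in RNA recovered by pull-down from lysate of J82, a bladder cancer line of human origin. The genes are the p53 inhibitors MDM2 and MDM4 and the p53-responsive genes GADD45A, SESN1, SESN2, PLK2, PLK3, GDF15 and TP53I3. They were taken by symbol, as every transcript that GENCODE 29 assigns to them, and are 9 of 52992 genes with summed counts. All 9 passed the minimum mean of 10 estimated counts, as did 14082 genes in all. J82 cells were lysed near confluence, and the RNA held by 1 of 3 proteins was sequenced on a BGISEQ-500. The proteins were glutathione S-transferase (GST) alone as the background control, GST fused to wild-type ZFP36L1, and GST fused to a ZFP36L1-Ala mutant whose altered residues the labels do not name. There was 1 library per protein, so no difference could be set against replicates and no p-value is given. All intervals are 95% intervals that cover counting error only.

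The transcription factor p53 answers DNA damage and other stress by switching on genes for cell cycle arrest, repair, antioxidant defence and cell death. MDM2 is itself a p53 target that ubiquitinates p53 and sends it to the proteasome, and its relative MDM4 binds and restrains p53. Several mRNAs of this response are short-lived. ZFP36L1 is a zinc finger protein that binds AU-rich elements in the 3′ untranslated region (3′ UTR), with UAUUUAU as a core site, and recruits the machinery that degrades the mRNA.

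Estimated counts summed to 19137867 in the GST library, 19845386 in the wild-type library and 19153483 in the mutant library. Counts were compared after scaling by the trimmed mean of M values (TMM), and a gene was called if its ratio reached 2-fold in either direction with an interval that excluded 1. Such ratios compare shares of a library and not amounts of RNA. Mitochondrial transcripts took 10.59% of the gene counts with GST, 15.46% with wild type and 7.533% with the mutant, and their part in the results was not tested. The name of the GST table carries a different run code from the other tables, so the run and the GST protein cannot be told apart in either comparison with GST. Of 13 urothelial and epithelial marker genes 6 reached the minimum mean count, and they did not move together. KRT7, KRT8 and KRT18 were lowest with wild type, with KRT18 at 12980, 823 and 20794 counts for GST, wild type and mutant. PPARG (416, 2552 and 553) and EPCAM (11, 55 and 3) were highest with wild type, and UPK1A had 21, 20 and 24. KRT5, KRT19 and UPK3A were at 0 in each library. The summed counts of these markers, most of them from keratins, were 18167, 3933 and 30364, and their part in the results below was not tested. No erythroid or hepatocyte marker (3 each) and 1 of 5 leukocyte markers, LYZ, reached the minimum. In lysate, the number of cells and the RNA per cell cannot be told apart.

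The 3′ UTRs of 6 of the 9 genes held the heptamer UAUUUAU on the sense strand (GENCODE 29, GRCh38), against 31.1% of 11426 tested genes with an annotated 3′ UTR. PLK3 and GDF15 held 3 copies each, PLK2 and MDM2 2 each, and GADD45A and MDM4 1 each. SESN1, SESN2 and TP53I3 held none. MDM2 counts among the 6 only through a 12633-base transcript that was listed at 0, 0.22 and 0 counts and deposited with 7198 bases. The 4 MDM2 models with nearly all of its counts hold no heptamer as GENCODE 29 gives them. The 31.1% was read from the coding transcript of highest TPM of each gene, a rule under which MDM2 had no 3′ UTR. Length was not matched: the median 3′ UTR of those genes was 969 bases, and those of MDM2 and MDM4 had 10837 and 8438 bases. A match describes the sequence and does not show binding there. The sequences below show 1 site of each gene, and both of MDM2, with 11 bases on either side, to show the contexts in which the heptamer occurs in genes that differed in recovery. Capitals mark the heptamer, except in SESN1, where they mark the single AUUUA pentamer of its 3′ UTR.

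PLK3 at chr1:44805900-44805928, plus strand: uggaccacuuuUAUUUAUugucagacacu

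GDF15 at chr19:18389119-18389147, plus strand: auggaacugugUAUUUAUuuaaaacucug

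PLK2 at chr5:58454042-58454070, minus strand: ccaaagagcagUAUUUAUuaucaaaaugu

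GADD45A at chr1:67688260-67688288, plus strand: acaugaaaaguUAUUUAUgcuauaaauuu

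MDM4 at chr1:204553623-204553651, plus strand: ugucaaauuaaUAUUUAUgauuguuaucu

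MDM2 at chr12:68842214-68842242, plus strand: augccaagcuaUAUUUAUaaugaacaaau

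MDM2 at chr12:68844762-68844790, plus strand: uauuuuauuuuUAUUUAUuuuuugagacg

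SESN1 at chr6:108986568-108986594, minus strand: uaucaaauuugAUUUAcaaaaacgcua

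The sites differed in where they lay. In PLK3 the heptamers began 97, 80 and 62 bases before the annotated end of a 3′ UTR of 312 bases, and in GDF15 129, 112 and 47 bases before the end of one of 241 bases. In PLK2 they began 102 and 78 bases before the end of a 3′ UTR of 601 bases, and in GADD45A the single site began 68 bases before the end of one of 564 bases. The sites of these 4 genes thus all began within 129 bases of the annotated end, in 3′ UTRs of which the longest had 601 bases. Site distances over all genes were not computed. In MDM4 the single site began 4487 bases before the end of a 3′ UTR of 8438 bases. In the 12633-base transcript of MDM2 the sites began 8462 and 5914 bases before the annotated end of a 3′ UTR of 10837 bases. That MDM2 transcript was deposited with 7198 bases, so the distance of its sites from the deposited end is not known. SESN2 (chr1:28259527-28282491, plus strand, 3′ UTR of 1689 bases) and TP53I3 (chr2:24077433-24085861, minus strand, 146 bases) held neither the heptamer nor AUUUA.

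**Figure D1:**
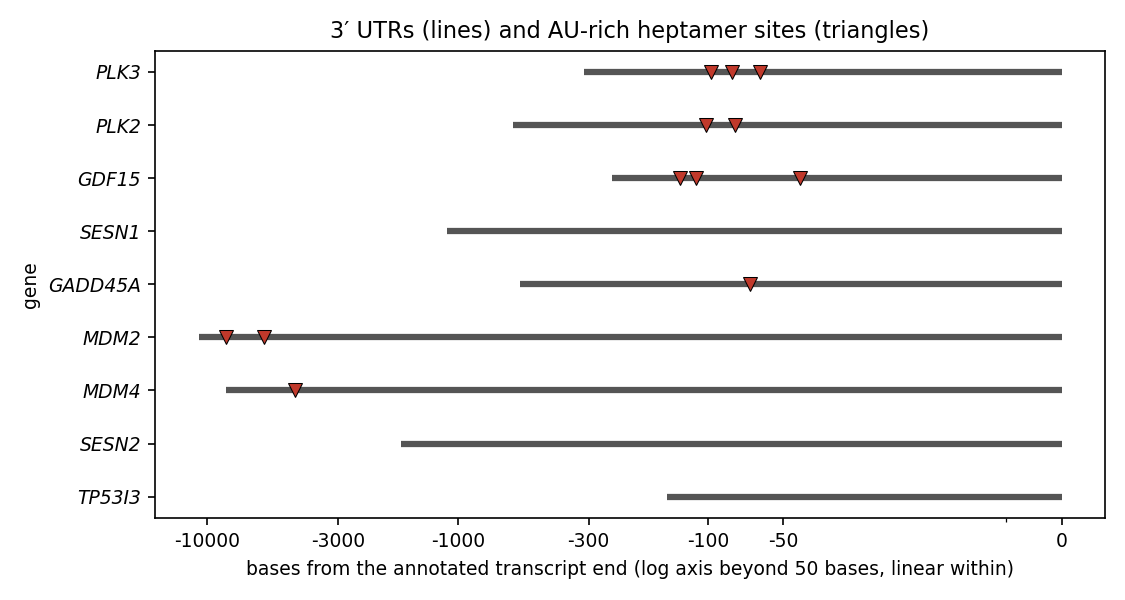
Annotated 3′ UTRs of the 9 genes drawn as lines, aligned at the transcript end, with a triangle at the first base of each UAUUUAU. The x axis is the distance in bases from the transcript end, logarithmic beyond 50 bases. PLK3, PLK2, GDF15 and GADD45A have all their sites within 129 bases of the annotated end, and SESN1, SESN2 and TP53I3 have none. MDM2 and MDM4 have them at least 4487 bases from the annotated end. The MDM2 transcript drawn has 12633 bases but was deposited with 7198, so the distance from its deposited end is not known.

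Setting the wild-type pull-down against GST addressed the question of which of these mRNAs the fusion protein recovered beyond background. PLK3 (log2 1.94), PLK2 (log2 1.88), GDF15 (log2 1.24) and SESN1 (log2 1.12) were at least 2-fold higher with wild-type ZFP36L1. TP53I3 (log2 -3.74) and SESN2 (log2 -3.02) were lower, and MDM2, MDM4 and GADD45A lay just under 2-fold higher. In all, 4 of 9 were higher, where 25.5% of the tested genes were, and 2 of 9 were lower, where 34.2% were. The median log2 ratio of the 9 genes was 0.95, against -0.04 for all genes. The members were chosen with earlier results of these libraries known, so these counts only describe them.

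**Figure D2:**
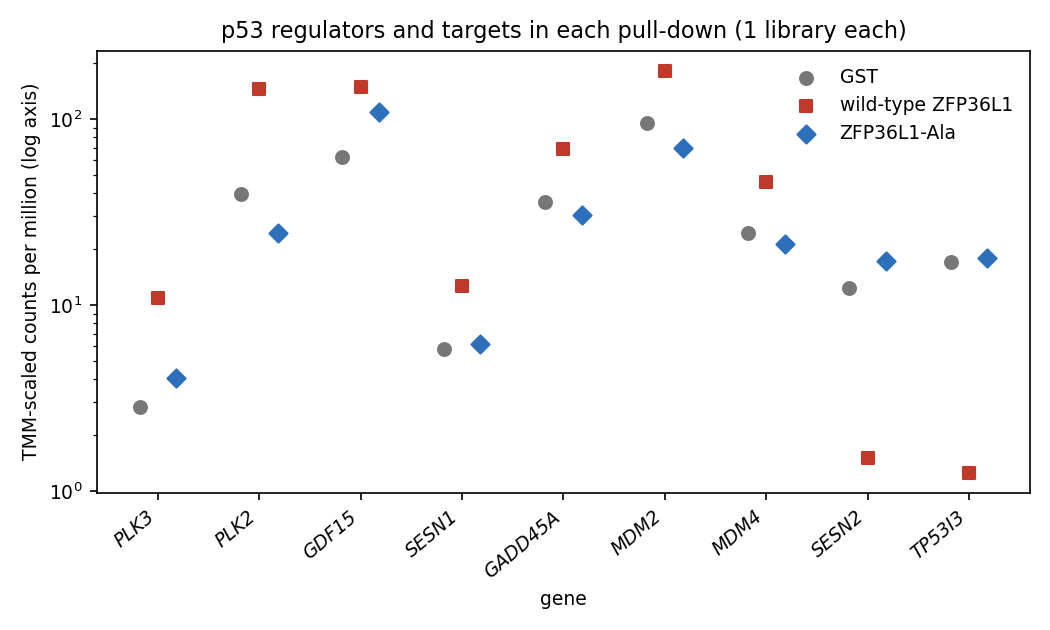
Level of each gene in each pull-down as TMM-scaled CPM, on a log axis, with 1 point per library and genes ordered by the ratio of wild type to GST. The wild-type library is the highest of the 3 for the first 7 genes and the lowest for SESN2 and TP53I3.

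MDM2, the ubiquitin ligase that limits p53, had 1794 estimated counts with GST, 3630 with wild-type ZFP36L1 and 1200 with the mutant. Its ratio of wild type to GST was 1.91 (log2 0.93, 0.85 to 1.02). MDM4, which binds the transactivation domain of p53, had 460, 921 and 366 counts in the same order, and a ratio of 1.89 (log2 0.92, 0.76 to 1.08). For both inhibitors the wild-type library was the highest. The mutant library was the lowest for MDM2, whereas for MDM4 the order of mutant and GST turned with the unit (1.949 TPM with GST and 2.193 with the mutant). The 10073-base MDM4 transcript, with 459 counts with GST and 355 with the mutant, did not turn (1.89 and 1.32 TPM). The turn came from the few counts on other MDM4 models. The log2 ratios of MDM2 and MDM4 for wild type over GST differed by 0.02 (-0.17 to 0.20), an interval that includes 0 and bounds the difference on either side. Because of the threshold neither was called under TMM. With library totals that left out the 20 most abundant genes, which moved the median of all genes by 0.11, MDM2 was at log2 1.04 and MDM4 at 1.03, and both were called.

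GADD45A, a small acidic protein induced by DNA damage that promotes growth arrest, had 672 counts with GST, 1378 with wild type and 521 with the mutant. The ratio of wild type to GST was 1.94 (log2 0.95, 0.82 to 1.09), and log2 1.06 with the totals just described. GADD45A thus stood beside MDM2 and MDM4 on the edge of the threshold.

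The sestrins, which restrain mTORC1 signalling and oxidative stress, moved apart. SESN1 had 109 counts with GST, 251 with wild type and 105 with the mutant, a ratio of wild type to GST of 2.17 (log2 1.12, 0.79 to 1.46). SESN2 had 234, 30 and 296 counts, and was 8.14-fold lower with wild type than with GST (log2 -3.02, -3.65 to -2.49). The wild-type library was thus the highest for one sestrin and the lowest for the other. The log2 ratio of SESN1 exceeded that of SESN2 by 4.16 (3.51 to 4.85), a 17.9-fold difference in which the library scaling cancels. It was smaller after a fit on GC content and length was removed, with SESN1 at -0.04 and SESN2 at -1.80. In TPM they were at 1.12 and -1.91 with a pseudocount of 0.5, and at 1.28 and -2.57 with 0.1. SESN2 with wild type, at 0.4065 TPM, lay under the larger pseudocount, which shrinks its ratio. Without a pseudocount SESN1 went from 1.776 TPM with GST to 4.46 with wild type, and SESN2 from 2.908 to 0.4065. SESN1 fell under 2-fold (log2 0.97) when each gene was represented by its most abundant transcript. That transcript held all SESN1 counts, so the change came from the scaling, which was computed anew on such counts.

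The Polo-like kinases PLK2 and PLK3, stress-responsive relatives of the mitotic kinase PLK1, had the highest ratios of the 9. PLK2 had 749 counts with GST, 2912 with wild type and 419 with the mutant, and was 3.67-fold higher with wild type than with GST (log2 1.88, 1.76 to 1.99). PLK3 had far fewer counts, 53, 217 and 69, and was 3.84-fold higher (log2 1.94, 1.51 to 2.41). Their log2 ratios differed by -0.07 (PLK2 minus PLK3, -0.55 to 0.38), which includes 0 but leaves room for a difference either way, and after the GC and length fit they stood apart, at 1.33 and 3.49. For PLK3 that fit used a 1135-base model with most of its counts, not the coding transcript. PLK2 stood at the 93.2nd percentile of all tested genes and PLK3 at the 93.9th.

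GDF15, a secreted stress cytokine of the TGF-beta superfamily, had 1186 counts with GST, 2969 with wild type and 1863 with the mutant. It was 2.36-fold higher with wild type than with GST (log2 1.24, 1.14 to 1.34). After scaling, the mutant library lay between the others for GDF15, PLK3 and SESN1. TP53I3, a quinone oxidoreductase linked to oxidative stress, had 321, 25 and 306 counts. It was 13.3-fold lower with wild type than with GST (log2 -3.74, -4.41 to -3.18), at the 5.1st percentile of all genes.

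Per transcript length, MDM2 had the highest level of the 9 genes in all 3 libraries, at 159.9 TPM, a share per transcript length with GST, 362.0 with wild type and 91.71 with the mutant. Nearly all of that MDM2 value came from 3 short transcript models described below. GDF15 followed at 47.7, 129.2 and 67.41 TPM. With GST the order then ran from PLK2 (27.84 TPM) through GADD45A (20.79) and TP53I3 (10.15) to SESN2 (2.908), PLK3 (2.798), MDM4 (1.949) and SESN1 (1.776). The counting intervals of SESN2 (2.55 to 3.31) and PLK3 (2.10 to 3.66) overlapped, as did those of MDM4 (1.77 to 2.14) and SESN1 (1.46 to 2.14). With wild-type ZFP36L1 the order of the low genes changed. PLK3 (9.062 TPM), SESN1 (4.46) and MDM4 (4.13) now lay above TP53I3 (0.7747) and SESN2 (0.4065), and the intervals of SESN1 and MDM4 overlapped, as did those of TP53I3 (0.501 to 1.14) and SESN2 (0.274 to 0.58).

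The comparison of the Ala mutant with GST asked whether the mutated protein still enriched these mRNAs. None of the 9 was called in either direction, where 9.0% of all tested genes were higher and 5.13% lower. In TPM, where a call rested on the ratio alone without an interval, PLK2 was lower (log2 -1.46 with a pseudocount of 0.5 and -1.49 with 0.1). Most of this drop lay on a short PLK2 model described below, at 21.4 TPM with GST and 5.42 with the mutant. The coding PLK2 transcript was at 6.42 and 4.41 TPM. The median log2 ratio was 0.07, against 0.04 for all genes, and its sign turned under other scalings. Of all genes called here 63.7% were higher, 48.0% when scaled to total counts and 38.6% to totals without the 20 most abundant genes. GDF15 had the highest ratio, 1.73 (log2 0.79, 0.69 to 0.90), and PLK2 the lowest, log2 -0.70 (-0.87 to -0.52). SESN2 was at log2 0.48 (0.23 to 0.73) and PLK3 at 0.52 (-0.02 to 1.07). MDM2 was at -0.44 (-0.55 to -0.33), GADD45A at -0.23 (-0.39 to -0.06) and MDM4 at -0.19 (-0.39 to 0.01). SESN1 (log2 0.09, -0.31 to 0.49) and TP53I3 (log2 0.07, -0.16 to 0.30) had intervals that include 0, and both turned negative when scaled to total counts. The kinases differed here: the log2 ratio of PLK2 was lower than that of PLK3 by a difference of -1.22 (-1.79 to -0.65).

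The comparison of wild-type with mutant ZFP36L1 asked what the substitution changed in the recovered RNA. It uses libraries that share a run code, but the wild-type library also enters the comparison with GST, so the comparisons are not independent. Higher with wild type were 6 of 9 genes, where 30.1% of all tested genes were, and 2 of 9 were lower, where 36.1% were. The median was log2 1.11, against -0.04 for all genes. PLK2 was the highest, 5.95-fold (log2 2.57, 2.43 to 2.73), at the 97.0th percentile of all genes. PLK3 was 2.68-fold higher (log2 1.42, 1.03 to 1.84), MDM2 2.59-fold (log2 1.37, 1.28 to 1.47), GADD45A 2.27-fold (log2 1.18, 1.03 to 1.33) and MDM4 2.15-fold (log2 1.11, 0.93 to 1.29). SESN1 was 2.04-fold higher (log2 1.03, 0.70 to 1.38). It was under 2-fold with scaling on protein-coding genes only (log2 0.97) or on the most abundant transcript of each gene (log2 0.91). Its own counts were the same in both settings, and only the scaling moved it. It was at the threshold and not called with a minimum mean of 100 counts (log2 1.0), and at -0.46 after the GC and length fit. MDM2 was also under 2-fold with its most abundant transcript (log2 0.83, and 0.95 for that transcript under the main scaling). GDF15 was 1.37-fold higher (log2 0.45, 0.37 to 0.53), short of the threshold. SESN2 was 11.3-fold lower (log2 -3.50, -4.12 to -2.98) and TP53I3 14.0-fold lower (log2 -3.81, -4.49 to -3.25). Under TMM, GDF15 thus passed 2-fold over GST and not over the mutant, while MDM2, MDM4 and GADD45A passed over the mutant and not over GST. This pattern depended on the settings. GDF15 was at log2 3.24 over the mutant after the GC and length fit, and MDM4 at 0.78 and 0.88 in TPM (pseudocounts of 0.5 and 0.1) and at -0.54 after the fit. The TPM values of MDM4 include the few mutant counts on its minor models.

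**Figure D3:**
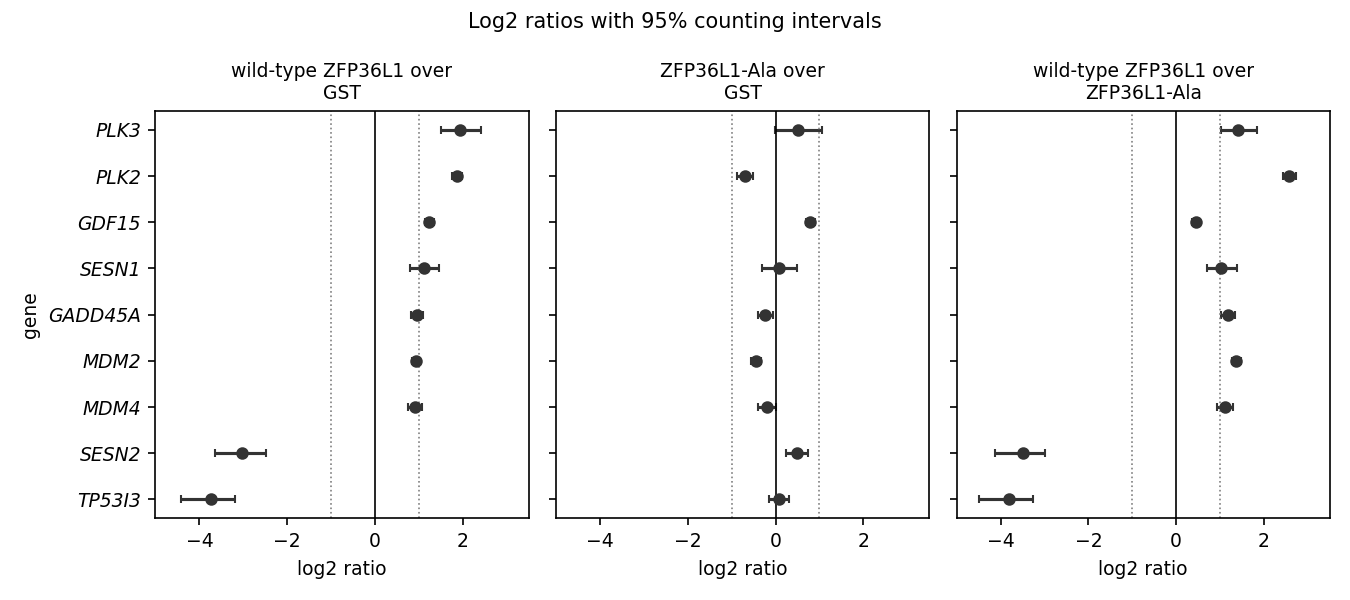
Log2 ratios of the 9 genes for the 3 comparisons, with 95% counting intervals as bars and dotted lines at a 2-fold difference. PLK2 reaches log2 2.57 over the mutant, SESN2 and TP53I3 lie below -3 over GST and over the mutant, and under TMM no gene passes 2-fold between mutant and GST.

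Base composition moved with these ratios over all genes, so the members were set beside it. The GC content of the transcript that supplied the 3′ UTR was 61.2% for PLK3, 62.9% for GDF15, 59.5% for SESN2 and 55.4% for TP53I3, all above the median of 47.9%. The median and the GC classes below use the transcript of each gene with the most counts. Of these genes only PLK3 differed on that measure, at 58.1%. PLK3 and GDF15, with 3 heptamers each, were higher with wild type, whereas SESN2 and TP53I3, without the heptamer, were lower. Among all tested genes with a transcript GC content of at least 55% and an annotated 3′ UTR, 18.5% of the 509 with the heptamer were higher with wild type than with GST and 29.9% lower. Of the 2756 without it 3.3% were higher and 80.2% lower. The bound of 55% was chosen after the members' values had been seen. PLK3 and GDF15 thus belonged to the smaller share of GC-rich genes that were higher, and SESN2 and TP53I3 to the common case of GC-rich genes without the heptamer.

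At the other end, SESN1 (41.9%) and MDM4 (42.4%) had AU-rich transcripts. Under 45% GC, 58.2% of 2108 genes with the heptamer and 35.8% of 2492 without it were higher with wild type than with GST. After removal of a fit with cubic terms for GC content and for length, PLK3 was at log2 3.49 and GDF15 at 3.35 for wild type over GST, and SESN1 at -0.04 and MDM4 at -0.33. The median of all genes was then -0.43, so SESN1 and MDM4 stood above it. PLK2 (1.33), GADD45A (1.35), SESN2 (-1.80) and TP53I3 (-2.79) kept their sign. The fit gave 1.07 for MDM2, but from a GENCODE 29 model far shorter than the deposited one. For PLK3 the fit used the 1135-base transcript with most of its counts, at 58.1% GC, and not the coding transcript. GC content, length and the heptamer were not separated for single genes, and their part in each ratio was not tested.

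**Figure D4:**
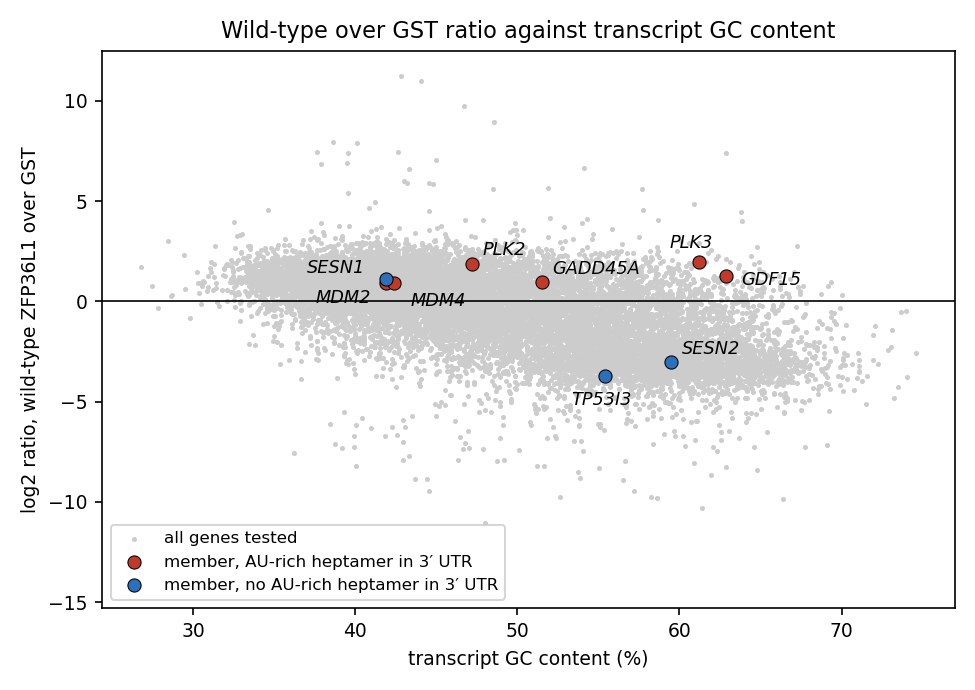
Wild-type over GST log2 ratio against the GC content of the transcript for all 14082 tested genes (grey) and the 9 genes (red with and blue without UAUUUAU in the 3′ UTR). Grey points are placed by the transcript of each gene with the most counts. MDM2 is placed by its 12633-base transcript and PLK3 by its 2492-base coding transcript, neither of which held its counts. At high GC content PLK3 and GDF15 lie above 0 while SESN2 and TP53I3 lie below -3.

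Summed counts hid differences between the transcript models of MDM2, PLK2, PLK3 and GDF15, and on few counts of TP53I3. Overlapping models share sequence, and the split between them is an estimate. Most MDM2 counts fell on 3 short models annotated as processed transcripts, of 406, 502 and 649 bases, whose exons lie inside the 3′ UTR of the 12633-base transcript (chr12:68839850-68850686, plus strand). Together they took 70.7% of the MDM2 counts with GST, 73.3% with wild type and 64.2% with the mutant. They hold no UAUUUAU, and the 2 heptamers of the long 3′ UTR lie outside their spans. The 649-base model (322, 1351 and 233 counts in the order above) and the 406-base model (177, 822 and 190) were higher with wild type than with GST, at log2 1.99 (1.81 to 2.17) and 2.13 (1.90 to 2.38). The 502-base model went the other way, with 769, 489 and 348 counts and log2 -0.73 (-0.90 to -0.57). Of the 31-mers of each MDM2 model most also occur in other transcript models. The shares were 94.3% for the 502-base, 95.5% for the 406-base and 96.3% for the 649-base model. For the coding model the share was 97.7%, over the 1037 bases that GENCODE 29 gives it and not those deposited. The coding model, deposited with 6700 bases, had 525, 967 and 428 counts, log2 0.80 (0.64 to 0.96) for wild type over GST and 0.95 (0.79 to 1.12) over the mutant. Judged by this model alone MDM2 passed 2-fold in neither comparison with the wild-type protein. GENCODE 29 gives that transcript 1037 bases, so its deposited 3′ UTR was not read here.

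PLK2 counts were divided between the coding transcript of 2960 bases in 14 exons and a processed transcript of 768 bases in 5 exons, which covers the 3′ part of the gene and holds both heptamers. The coding transcript had 439, 1687 and 332 counts, and the short one had 310, 1225 and 87. Over GST they were alike with the wild-type protein, at log2 1.86 (1.71 to 2.01) and 1.90 (1.72 to 2.08). Over the mutant the short model stood at log2 3.59 (3.28 to 3.92) and the coding one at 2.12 (1.95 to 2.30). The ratio of mutant to GST was -0.26 (-0.47 to -0.05) for the coding and -1.69 (-2.05 to -1.35) for the short model, so the models differed most in the mutant library. Of the 31-mers of the coding model 75.8%, and of the short model 96.6%, also occur in other transcript models. The intervals do not cover error in dividing counts between the models.

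PLK3 counts fell on processed-transcript models, and the coding transcript was listed at under 1 count in each library. The models of 2477 and 1135 bases, which hold all 3 heptamers, had 36, 208 and 46 counts together (log2 2.43, 1.93 to 3.0, for wild type over GST). The models of 664 and 873 bases end before the heptamers and had 16, 9 and 23 counts together (log2 -0.88, -2.27 to 0.35). They went opposite ways, the 664-base model with 16, 2 and 13 counts and the 873-base model with 0, 7 and 10. Of the 31-mers of the 664-base model 25.1% also occur in other genes, as do 18.9% of those of the 873-base model. GDF15 showed the same arrangement with a very small second model. The 1200-base transcript, which holds the 3 heptamers, had 1173, 2966 and 1855 counts, and the 890-base transcript, which ends before them, had 10, 1 and 8. With so few counts the log2 ratio of the 890-base transcript for wild type over GST was fixed only to between -8.84 and -0.59. In TP53I3 a minor 677-base model had 20, 0 and 2 counts, beside 298, 25 and 301 on the 1635-base transcript. For mutant over GST these models were at log2 -2.90 (-6.32 to -1.14) and 0.15 (-0.08 to 0.39).

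**Figure D5:**
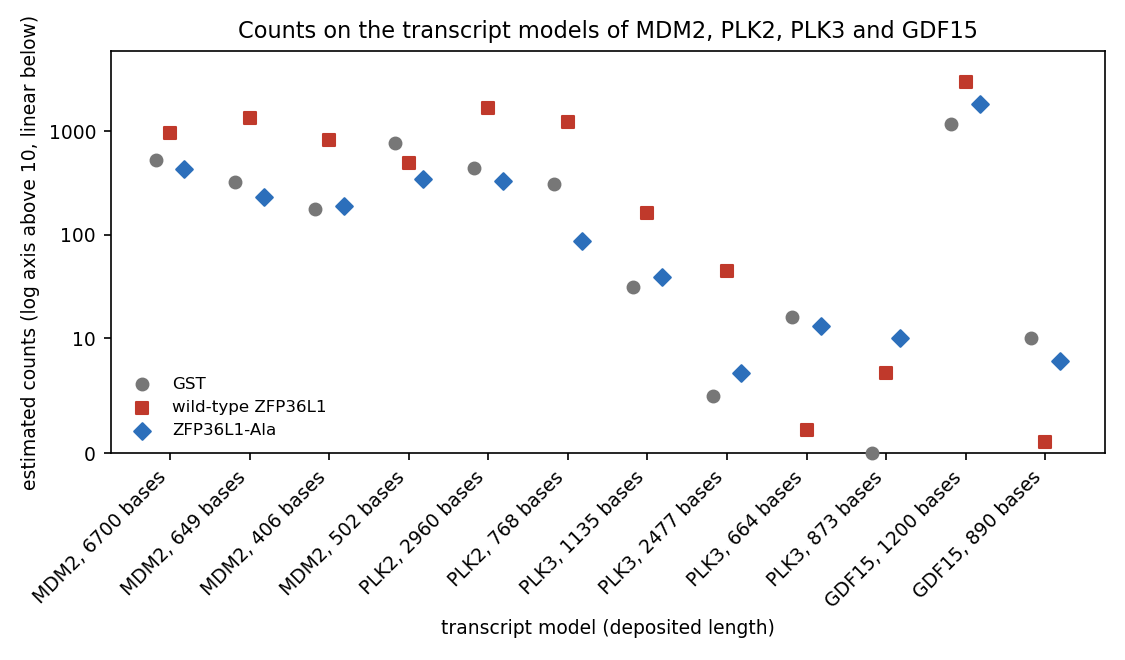
Estimated counts per library on the transcript models of MDM2, PLK2, PLK3 and GDF15 (log axis above 10 counts, linear below; 1 point per library), each model named by its deposited length in bases. The 502-base MDM2, 664-base PLK3 and 890-base GDF15 models have fewer counts with wild-type ZFP36L1 than with GST, and the other models, the 873-base PLK3 model among them, have more.

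The rest of the p53 network was described by 4 lists of other genes. Of 21 further regulators of p53, all measured, 5 passed as higher and 5 as lower for wild type over GST, with a median log2 ratio of -0.25. Over all tested genes 25.5% were higher and 34.2% lower for wild type over GST. The shares were 30.1% and 36.1% for wild type over mutant, and 9.0% and 5.13% for mutant over GST. This list and the next 3 are to be read against the shares of the same comparison. CHEK1, a checkpoint kinase (815 counts with GST and 2780 with wild type, log2 1.69), and RCHY1, a ubiquitin ligase that acts on p53 (361 and 1194, log2 1.64), were higher. The acetyltransferase KAT5 (167 and 16, log2 -3.43) and the p53 and MDM2 partner DAXX (1394 and 220, log2 -2.74) were lower. Against the mutant 8 were higher, among them EP300 (log2 1.79), and 4 lower, among them RPL11, a ribosomal protein that inhibits MDM2 (log2 -3.14). Between mutant and GST 1 was higher, KAT5 (log2 1.0), and 1 lower, the damage kinase ATR (log2 -1.58), which was named after its value was seen and had 54, 48 and 16 counts.

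Among p53 targets of cell cycle arrest 6 of 9 were measured, and for wild type over GST 2 were higher and 2 lower. E2F7, a transcriptional repressor of cell cycle genes, was higher (324 and 1766 counts, log2 2.36), and the 14-3-3 protein SFN was lower (738 and 32 counts, log2 -4.59). CDKN1A, the cyclin-dependent kinase inhibitor p21, had 1569, 2377 and 1757 counts with GST, wild type and mutant, at log2 0.52 (0.42 to 0.61) over GST and 0.21 (0.12 to 0.30) over the mutant. CCNG1, cyclin G1, was at log2 0.36 over GST and 1.02 over the mutant. Neither CDKN1A nor CCNG1 was called over GST.

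Of 18 p53 targets of cell death 13 were measured, with 5 higher, 5 lower and a median of -0.04 for wild type over GST. The BCL2 family members PMAIP1 and BBC3, both inducers of apoptosis, parted: PMAIP1 (588, 2415 and 255 counts) was at log2 1.96 and BBC3 (166, 12 and 247) at -3.82. PERP, a desmosomal p53 effector, was higher (log2 1.92), and PIDD1, a death domain protein, was lower (log2 -2.90). Over the mutant 5 were higher and 4 lower, with a median of -0.32, PMAIP1 at log2 3.02 and PERP at 2.53, and BBC3 at -4.53 and PIDD1 at -4.72.

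Of 17 targets of DNA repair and metabolism 16 were measured, with 7 higher, 8 lower and a median of -0.67 for wild type over GST. TRIAP1 (501 and 2536 counts, log2 2.26), an inhibitor of apoptosis, and TIGAR (251 and 1216, log2 2.19), which limits glycolysis, were higher. FDXR, ferredoxin reductase (223 and 22, log2 -3.39), and SCO2, an assembly factor of cytochrome c oxidase (230 and 23, log2 -3.38, summed over its pair of gene identifiers), were lower. Over all 4 lists 19 of 56 measured genes were higher and 20 lower over GST, 22 higher and 18 lower over the mutant, and 6 higher and 2 lower between mutant and GST. The shares of all tested genes were 25.5% and 34.2% over GST, 30.1% and 36.1% over the mutant, and 9.0% and 5.13% between mutant and GST. The count of lower genes over GST lay near the share of all genes, and nothing particular to the network is read from these counts.

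Likeness to the extreme members was measured as the distance between genes in the plane of the log2 ratios of wild type and of mutant to GST, over 9150 protein-coding genes with a mean of at least 100 counts. PLK3 (log2 1.94 and 0.52) lay nearest to FOXO1 (1.93 and 0.51), MAD2L1BP (1.93 and 0.56) and B4GALT3 (1.96 and 0.56). TP53I3 (-3.74 and 0.07) lay nearest to EIF2B2 (-3.73 and 0.06), PSMD4 (-3.72 and 0.06) and MYBBP1A (-3.74 and 0.09). The distance rests on 3 libraries that share GST.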

How the data were processed

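RNA bound by GST, GST-ZFP36L1 and GST-ZFP36L1-Ala was measured in 1 library each. The submitters' processing notes name kallisto, DESeq2 and hg19. Their versions and options, the annotation release and the strandedness were not given in the sources used here. Per the file headers, the deposited tables give an estimated count and a TPM value for 196354 transcripts, and kallisto computes TPM from the estimated counts and effective lengths. Transcripts were joined by identifier to GENCODE 29 (GRCh38), which matched 92.62% of them; coordinates are those of GRCh38. Unmatched transcripts were left out; their counts made up 3.92% (GST), 3.79% (wild type) and 4.2% (mutant). Estimated counts were summed per gene and rounded. Scaling factors came from the TMM method of edgeR 4.0.16 (1.03, 1.05 and 0.933). A prior of 0.5 counts entered each log2 ratio, and intervals are exact Clopper-Pearson intervals on the split of the counts of 2 libraries. They cover counting error only. The difference between 2 genes has a conditional exact interval on the odds ratio. The interval code was checked on simulated data.

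Each 3′ UTR was read from the coding transcript that had the highest TPM on average. For MDM2 that transcript has none in GENCODE 29, so the one of 12633 bases was used, a choice made after the data were seen. The members and lists were chosen with earlier results of these data known. All 9 members are named. From each list the 2 highest and 2 lowest ratios per comparison among genes with a mean of at least 100 counts could be named, as could the 3 nearest genes to the members with the highest and lowest ratio. A comparison of member proteins was planned and not run. Alternatives were DESeq2 1.42.0 size factors, other totals, the deposited TPM with pseudocounts of 0.5 and 0.1, other minimum values, protein-coding genes only, the most abundant transcript only, and a fit on GC content and length. In TPM and after the fit no interval was used, and a ratio of 2-fold alone made a call.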

Additional observations from a re-analysis of the deposited data

How the results depend on the processing

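Across 11 alternatives the direction of PLK2, PLK3, SESN2 and TP53I3 in both comparisons with the wild-type protein, and their calls, did not change. With TPM and after the fit, a call meant a 2-fold ratio alone. The number of members higher over GST rose from 4 to 7 with totals lacking the 20 most abundant genes, as it did with TPM at a pseudocount of 0.1, because MDM2, MDM4 and GADD45A then passed 2-fold. It was 6 with TPM at a pseudocount of 0.5 and 3 with the most abundant transcript only. In the latter setting SESN1 dropped out through the scaling, since that transcript held all its counts. The number higher over the mutant fell from 6 to 5 with either TPM setting, a minimum mean of 100 counts or protein-coding genes only, and to 4 with the most abundant transcript only. The median of the members for mutant over GST turned to -0.07 with total counts, -0.14 with totals lacking the 20 most abundant genes, -0.15 and -0.18 with TPM at pseudocounts of 0.5 and 0.1, and -0.01 with no minimum. With TPM 1 member, PLK2, was lower there, mostly through its 768-base model. In the same order of settings TP53I3 turned to -0.07, -0.14, -0.34, -0.35 and -0.01, and SESN1 to -0.05, -0.13, -0.15 and -0.18 in the first 4. MDM4 turned to 0.14 and 0.16 with TPM, through the few counts on its minor models. The median for wild type over mutant was 1.43 with totals lacking the 20 most abundant genes, 1.47 with TPM at a pseudocount of 0.1 and 1.65 after removal of the GC and length fit. That removal turned MDM4 to -0.33, 0.21 and -0.54 for wild type over GST, mutant over GST and wild type over mutant, SESN1 to -0.04 and -0.46 for wild type over GST and over mutant, and TP53I3 to -0.22 for mutant over GST. It also moved the median of all genes to -0.43 for wild type over GST and -0.53 for wild type over mutant, so these values of SESN1 lay above that median, and those of MDM4 above it and close to it. The cause was not tested. With totals lacking the 20 most abundant genes the median over all genes shifted by 0.11, -0.21 and 0.32 for wild type over GST, mutant over GST and wild type over mutant. It turned the share of higher genes among those called from 63.7% to 38.6% for mutant over GST. No paired analysis was possible because each group has 1 library. Depth limits PLK3, with 53 counts for GST, and SESN2 and TP53I3, with 30 and 25 for wild type.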

Other observations

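Relatives of the members by sequence were also measured, 6 of 11 at the minimum count. Beside PLK2 and PLK3, the centriole kinase PLK4 was higher for wild type over GST (528 and 1242 counts, log2 1.15, 1.0 to 1.30) and the mitotic kinase PLK1 was lower (2835 and 1394 counts, log2 -1.11, -1.20 to -1.01). CRYZ, a quinone oxidoreductase related to TP53I3, had 1275, 2352 and 609 counts, at log2 0.80 over GST and 1.73 over the mutant, opposite in sign to TP53I3. GDF11, of the same superfamily as GDF15, was lower over GST (272 and 139 counts, log2 -1.05). In all, 1 relative was higher and 2 were lower over GST, where 25.5% and 34.2% of all tested genes were.

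Genes that overlap the members on the genome had few counts, apart from CPM on the strand opposite to MDM2, with 188, 159 and 165 counts for GST, wild type and mutant. FAM228B, opposite to TP53I3, had 10, 7 and 6.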
